A study of Mus musculus with 9 samples.

Results

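The mitogen-activated protein kinase (MAPK) feedback genes described here are 10 genes that restrain MAPK signalling, and they were picked by name on the FPKM values of these same libraries, out of 54532 genes in the deposited table. They are Dusp1, Dusp4, Dusp5, Dusp6, Dusp8, Dusp10 and Dusp16, which encode dual-specificity phosphatases, and Spry2, Spry4 and Spred1, which encode inhibitors of the Ras-Raf step. RNA-seq was performed on livers of male C57BL/6 mice in 3 groups of 3 libraries. The NC group is labelled control. Mice were fasted overnight before dosing. The APAP group was given acetaminophen (APAP), the analgesic that injures hepatocytes at high dose, at 500 mg/kg by intraperitoneal injection, and livers were taken at 6 h. The AMSC group received the same APAP and, directly afterwards through the tail vein, adipose-derived mesenchymal stem cells (AMSCs) grown from inguinal fat of C57BL/6 mice, and livers were again taken at 6 h. Values below are listed by replicate number, which runs from 1 to 3 in the NC and APAP groups and from 2 to 4 in the AMSC group. The labels name no genotype beyond the strain, and whether the NC mice were injected with a vehicle is not given in the sources used here.

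MAPKs are switched on by phosphorylation of a threonine and a tyrosine in their activation loop, and dual-specificity phosphatases remove both phosphates. Dusp6 acts on ERK in the cytoplasm and Dusp5 on ERK in the nucleus, Dusp1 and Dusp4 are nuclear enzymes that act on ERK, JNK and p38, and Dusp8, Dusp10 and Dusp16 act mainly on JNK and p38. Sprouty and Spred proteins act higher in the cascade, between the receptor and Raf. Many of these genes are themselves transcribed when their kinase is active, so that their mRNA is commonly read as a trace of recent pathway activity, and in APAP injury of the liver sustained JNK activation is a well-known feature.

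The 250 bases before the transcription start are shown for Dusp1, Dusp8 and Dusp5, the members whose window held a full match to one of the longer motifs searched. Sequences are from RefSeq on GRCm38.p6, written 5′ to 3′ on the strand of the gene, and lie at chr17:26508473-26508722 (minus strand, Dusp1), chr7:142095285-142095534 (minus strand, Dusp8) and chr19:53528895-53529144 (plus strand, Dusp5). Capitals mark matches on either strand to the cAMP response element CRE (TGACGTCA), the short CRE (TGACG, which overlaps every full CRE) and the CArG box of serum response factor.
Dusp1: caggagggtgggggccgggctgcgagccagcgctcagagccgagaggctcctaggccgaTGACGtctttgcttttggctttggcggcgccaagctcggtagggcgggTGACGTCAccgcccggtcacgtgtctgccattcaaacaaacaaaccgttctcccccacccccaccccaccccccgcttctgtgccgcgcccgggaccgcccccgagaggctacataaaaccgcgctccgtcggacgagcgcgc
Dusp8: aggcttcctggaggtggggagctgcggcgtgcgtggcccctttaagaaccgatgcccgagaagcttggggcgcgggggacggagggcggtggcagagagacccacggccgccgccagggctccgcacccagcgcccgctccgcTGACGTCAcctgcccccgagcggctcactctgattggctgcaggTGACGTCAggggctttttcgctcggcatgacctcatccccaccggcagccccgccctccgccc
Dusp5: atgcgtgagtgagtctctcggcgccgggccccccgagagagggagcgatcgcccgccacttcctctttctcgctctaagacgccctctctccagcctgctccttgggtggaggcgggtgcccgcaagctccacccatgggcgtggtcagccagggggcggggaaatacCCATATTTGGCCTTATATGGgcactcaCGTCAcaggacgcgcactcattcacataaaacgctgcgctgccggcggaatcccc

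The Dusp1 window held 1 full CRE, with its first base 143 bases before the start, and the Dusp8 window held 2, at 107 and 63 bases. The Dusp5 window held no full CRE but 2 adjoining CArG boxes, at 82 and 72 bases, and 1 short CRE at 55 bases. Among all 32851 RefSeq windows of this length, 1.55% held a full CRE, 17.8% a short CRE and 1.47% a CArG box. Windows were on hand for 8 of the 10 members, all except Dusp4 and Spry4. Of the other 5 windows, that of Dusp16 held a short CRE and those of Dusp6, Dusp10, Spry2 and Spred1 held no match to these letters. The AP-1 site (TGANTCA) and the NF-kB site, present in 6.75% and 7.25% of all windows, were not matched in any of the 8. These matches are a description of letters, not of binding. The RefSeq starts of all 3 genes shown lie inside the gene as the deposited table bounds it, so each window is that of 1 annotated start. The Dusp8 window lies wholly inside those bounds. The bases after its start were not found in a GENCODE vM21 transcript of Dusp8, whereas those of Dusp1 and Dusp5 were found in theirs.

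The libraries held 13418921 to 16210930 gene-assigned reads each, and 1 read on a gene of 1 kilobase was worth 0.0578 to 0.0807 FPKM. FPKM is a level per gene length, here scaled by a size factor of each library rather than by its read total. Albumin and the other hepatocyte markers led in every library, with summed levels of 40670 to 63299 FPKM, so the tissue label held. NC replicate 3 carries another date in its title than the other 8 libraries. Differences between groups are on the log2(FPKM + 1) scale, with the standard error (SE) of a limma fit across all 9699 genes whose mean over the libraries reached 1 FPKM, and a gene was called when its adjusted p was at most 0.05 and its log2 difference at least 1 in either direction. Of the members, 9 passed the filter and Spry2, at a mean of 0.904 FPKM, did not. Because the members were selected on these values, their differences are given as a description and without p-values. The comparisons share their NC or APAP libraries and are not independent of each other. In whole liver, fewer cells of a type and less RNA per cell cannot be told apart.

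With APAP, 7 of the 10 members were called higher than in NC livers, against 5.09% of all tested genes, and in the AMSC group 4 were called lower than in the APAP group, against 1.22% of all tested genes. Those 4 were both ERK-selective phosphatases, Dusp5 and Dusp6, together with Dusp4 and Spry4. None of the 3 JNK/p38 phosphatases was among them. When all genes above 0 were fitted, Dusp6 kept this call, while Dusp4, Dusp5 and Spry4 lost it at the same differences. Compared with NC, 5 members were called higher in the AMSC group, namely Dusp1, Dusp4, Dusp5, Dusp6 and Dusp8, against 3.92% of all tested genes. All 3 libraries of one group lay above all 3 of the other for 10 members in APAP against NC (20.9% of tested genes), 7 members lay wholly lower in AMSC than in APAP (12.4%), and 8 lay wholly higher in AMSC than in NC (23.2%). The median difference over the 10 members was 2.22 for APAP minus NC, -0.81 for AMSC minus APAP and 1.10 for AMSC minus NC, beside medians of -0.0043, 0.013 and 0.016 over all tested genes. Since the members were chosen for how they moved in these comparisons, nothing is read from the shares.

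**Figure D1:**
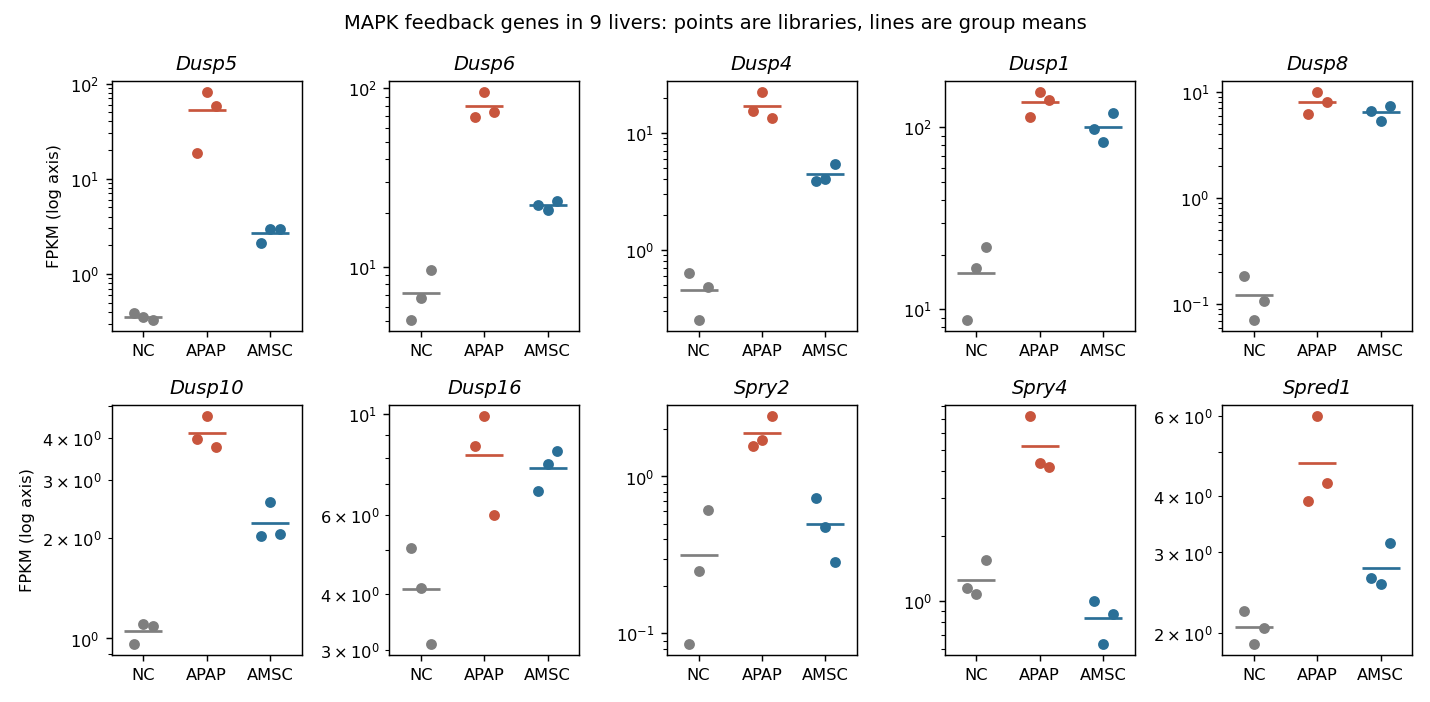
FPKM on log axes of the 10 MAPK feedback genes in each of the 9 libraries (points) with group means (lines), by group (NC, APAP, AMSC). APAP livers lay above all NC livers for all 10 genes, and the AMSC livers lay apart from the APAP livers for Dusp5, Dusp6, Dusp4, Dusp10, Spry2, Spry4 and Spred1 but overlapped them for Dusp1, Dusp8 and Dusp16.

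Dusp5 (chromosome 19, 53529109 to 53542431, plus strand), the nuclear ERK phosphatase, had the widest range of the members. It was at 0.388, 0.351 and 0.329 FPKM in NC livers, from only 14 to 16 reads per library. In APAP livers it stood at 18.7, 80.8 and 58.0 FPKM, a mean of 52.5 ± 31.4 (SD, n = 3) that was 148-fold the NC mean. AMSC livers held 2.09, 2.99 and 2.99 FPKM, a mean of 2.69 ± 0.519 (SD, n = 3). Thus the groups did not overlap, APAP replicate 1 was well below the other APAP livers, and the AMSC libraries were tightly grouped. The mean with AMSCs was 19.5-fold lower than with APAP alone and still 7.55-fold that of NC. On the log2 scale Dusp5 rose by 5.07 (SE 0.46) with APAP, was 3.64 lower (log2 difference -3.64, SE 0.47) with AMSCs, and remained 1.43 (SE 0.13) above NC. A pseudocount of 1 compresses low levels, and the AMSC minus NC difference was 2.60 with a pseudocount of 0.1 and 2.86 by voom on recovered reads.

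Dusp6 (chromosome 10, 99263231 to 99267489, plus strand), the cytoplasmic ERK phosphatase, started from a much higher level. NC livers held 5.05, 6.72 and 9.61 FPKM, APAP livers 69.5, 94.9 and 73.6 FPKM, and AMSC livers 22.3, 20.8 and 23.5 FPKM. The 3 groups were again fully apart. Means were 7.13 ± 2.31, 79.3 ± 13.6 and 22.2 ± 1.34 FPKM (SD, n = 3 each), an 11.1-fold rise with APAP and a 3.58-fold lower mean with AMSCs. The log2 differences were 3.33 (SE 0.22) for APAP minus NC, -1.78 (SE 0.15) for AMSC minus APAP and 1.55 (SE 0.19) for AMSC minus NC.

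Dusp4 (chromosome 8, 34807297 to 34819894, plus strand) and Dusp1 encode nuclear phosphatases with a broad range of substrates, and they parted in the AMSC group. Dusp4 was at 0.634, 0.253 and 0.488 FPKM in NC livers (12 to 29 reads), at 15.3, 22.1 and 13.3 FPKM in APAP livers, and at 3.86, 4.07 and 5.39 FPKM in AMSC livers. The AMSC livers thus lay between the other groups without overlap. The mean of Dusp4 was 36.9-fold that of NC with APAP and 9.69-fold with AMSCs. Its log2 difference was 3.598 (SE 0.20) for APAP minus NC, -1.70 (SE 0.20) for AMSC minus APAP and 1.90 (SE 0.15) for AMSC minus NC, the last of which was 3.07 with a pseudocount of 0.1 and 3.33 by voom.

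Dusp1 (chromosome 17, 26505590 to 26508519, minus strand) was the most abundant member in every group. It was at 8.76, 16.9 and 22.1 FPKM in NC livers, 114.5, 155.7 and 141.0 FPKM in APAP livers, and 98.1, 83.2 and 119.5 FPKM in AMSC livers. AMSC replicate 4 exceeded APAP replicate 1, so those 2 groups overlapped, while both lay above all NC livers. The mean was 8.62-fold that of NC with APAP (log2 difference 3.11, SE 0.30) and 6.31-fold with AMSCs (2.66, SE 0.29). The difference of AMSC minus APAP, -0.45 (SE 0.18), was not called.

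Among the JNK/p38 phosphatases, Dusp8 (chromosome 7, 142079490 to 142095843, minus strand) had the largest fold over NC. NC livers held 0.185, 0.0712 and 0.107 FPKM, from 6 to 15 reads, APAP livers 6.18, 9.92 and 8.05 FPKM, and AMSC livers 6.59, 5.31 and 7.36 FPKM. The APAP and AMSC livers overlapped and both were far above every NC liver. Dusp8 rose with APAP by 2.99 (SE 0.17) and was 2.72 (SE 0.13) above NC with AMSCs, and its AMSC minus APAP difference of -0.28 (SE 0.18) was not called. With a pseudocount of 0.1 the APAP minus NC difference was 5.21 and that of AMSC minus NC 4.90.

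Dusp10 (chromosome 1, 184013302 to 184075636, plus strand) and Dusp16 (chromosome 6, 134715468 to 134792625, minus strand) moved less. Dusp10 was at 0.965, 1.10 and 1.09 FPKM in NC, 3.99, 4.67 and 3.77 FPKM in APAP and 2.03, 2.58 and 2.06 FPKM in AMSC livers. Its groups were fully apart, and of its 3 differences, 1.32 (SE 0.12), -0.68 (SE 0.13) and 0.65 (SE 0.12) for APAP minus NC, AMSC minus APAP and AMSC minus NC, the first was called and the others passed the adjusted p but not the fold. For AMSC minus APAP, Dusp10 no longer passed the adjusted p when any APAP or AMSC library was left out. The same held when all genes above 0 were fitted and with the replicate number as a block. Strand was not stated for the counting, and 1700056E22Rik, with at most 29 reads in a library, lies opposite Dusp10. Dusp16 was at 5.06, 4.12 and 3.11 FPKM in NC, 8.50, 9.91 and 5.98 FPKM in APAP and 6.77, 7.76 and 8.31 FPKM in AMSC livers. AMSC and APAP livers overlapped, and neither its difference of 0.84 (SE 0.21) for APAP minus NC nor that of 0.77 (SE 0.16) for AMSC minus NC reached the fold.

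Spry4 (chromosome 18, 38586268 to 38601268, minus strand), an inhibitor of Ras-Raf signalling, was the member whose AMSC livers were below NC. It stood at 1.15, 1.08 and 1.55 FPKM in NC, 7.18, 4.36 and 4.17 FPKM in APAP and 1.002, 0.637 and 0.870 FPKM in AMSC livers. All AMSC livers were below all NC livers, although that difference, -0.30 (SE 0.13), was not called. Spry4 rose with APAP by 1.44 (SE 0.20), and its AMSC minus APAP difference of -1.74 (SE 0.20) was called. In fold terms, the mean was 6.26-fold lower with AMSCs than with APAP alone.

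Spry2 (chromosome 14, 105891947 to 105896819, minus strand), a second Sprouty inhibitor, was scarce throughout. NC livers held 0.0862, 0.249 and 0.612 FPKM, APAP livers 1.57, 1.70 and 2.42 FPKM, and AMSC livers 0.724, 0.479 and 0.287 FPKM, from 3 to 68 reads per library. APAP livers were above all others and the AMSC and NC livers overlapped. Spred1 (chromosome 2, 117121374 to 117182279, plus strand), which recruits neurofibromin to Ras, was at 2.24, 1.89 and 2.05 FPKM in NC, 3.90, 5.98 and 4.26 FPKM in APAP and 2.64, 2.55 and 3.15 FPKM in AMSC livers. Its groups were apart but close, with differences of 0.89 (SE 0.16), -0.58 (SE 0.16) and 0.30 (SE 0.11) in the same order as above, none of them called.

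**Figure D2:**
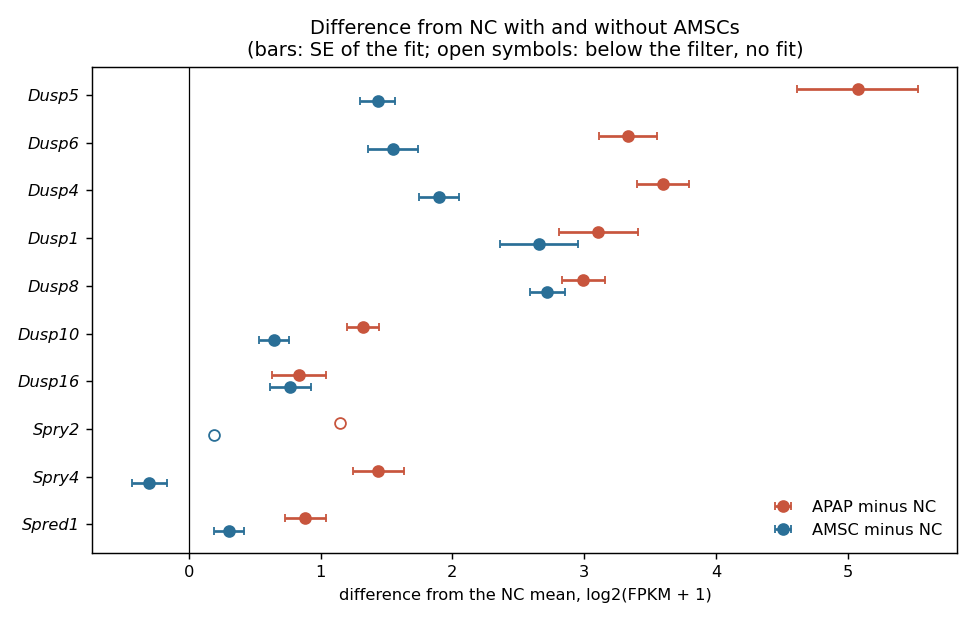
Difference of the APAP and AMSC group means from the NC mean, on the log2(FPKM + 1) scale, for each member (points; bars are the SE of the limma fit; Spry2, below the filter, is drawn open without a bar). The APAP and AMSC points lie furthest apart for Dusp5 (5.07 and 1.43) and close together for Dusp8 (2.99 and 2.72) and Dusp16 (0.84 and 0.77).

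Set side by side, the members differed in how much of the APAP minus NC difference was found in AMSC minus NC on the log2(FPKM + 1) scale. It was 92.3% for Dusp16, 90.8% for Dusp8 and 85.5% for Dusp1, around the middle for Dusp4 (52.7%), Dusp10 (48.9%) and Dusp6 (46.5%), and lower for Spred1 (34.2%), Dusp5 (28.3%) and Spry2 (17.0%), while Spry4 was on the other side of NC (-20.8%). The APAP minus NC differences behind these shares were not called for Dusp16 and Spred1 and not tested for Spry2. No error was computed for the shares. The order of neighbours depended on the scale, since by voom on the recovered reads Dusp5 (41.2%) came above Spred1 (36.9%), Dusp8 (94.8%) above Dusp16 (92.4%), and Spry2 was at 31.7%. Averaged by class on the log2(FPKM + 1) scale, the ERK-selective pair stood 4.20 ± 0.64 above NC in APAP livers and 1.49 ± 0.11 in AMSC livers (SD over 3 livers). Dusp1 and Dusp4 together stood 3.35 ± 0.26 and 2.28 ± 0.22 above NC, the JNK/p38 class 1.72 ± 0.21 and 1.38 ± 0.07, and Spry2, Spry4 and Spred1 together 1.16 ± 0.03 and 0.07 ± 0.09. That last mean averages opposite signs, since with AMSCs Spry4 was below NC (-0.30) and Spred1 (0.30) and Spry2 (0.19) were above. It was 0.18 with a pseudocount of 0.1 and 0.26 by voom. With a pseudocount of 0.1 the ERK-selective pair stood 5.05 and 2.13 above NC and the JNK/p38 class 2.69 and 2.27, so the order of these classes in AMSC livers turned with the scale. Within the JNK/p38 class, Dusp10 was nearer to Dusp6 in its share than to Dusp8 and Dusp16. The order of levels changed as well. In APAP livers Dusp5 ranked next after Dusp1 and Dusp6, above Dusp16 (8.13 ± 1.99 FPKM) and Dusp8 (8.05 ± 1.87 FPKM), which did not differ from each other beyond their spread. In AMSC livers Dusp16 (7.61 ± 0.783 FPKM) and Dusp8 (6.42 ± 1.04 FPKM) were above Dusp5 (2.69 ± 0.519 FPKM), which in turn lay within the spread of Spred1 (2.78 ± 0.323 FPKM).

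Ratios of 2 phosphatases within a library do not depend on the scaling of that library. The pairs below were set with earlier results of these data known, and other pairs were not computed. Dusp6 relative to Dusp1 was 0.398 to 0.577 in NC, 0.522 to 0.610 in APAP and 0.196 to 0.250 in AMSC livers. The NC and APAP livers overlapped in this ratio and every AMSC liver was below both. Dusp5 relative to Dusp8 was 2.10 to 4.92 in NC, 3.02 to 8.14 in APAP and 0.317 to 0.563 in AMSC livers, so that Dusp5 mRNA exceeded Dusp8 mRNA per length in all NC and APAP livers and was below it in all AMSC livers. Dusp4 relative to Dusp8 was 3.44 to 4.54 in NC, 1.65 to 2.48 in APAP and 0.585 to 0.767 in AMSC livers. The NC values of the Dusp8 ratios rest on few reads. The position of the AMSC livers against NC depends on the pair. Relative to NC, the AMSC mean was 3.11-fold for Dusp6, 7.55-fold for Dusp5 and 9.69-fold for Dusp4. It was 6.31-fold for Dusp1 and 53.0-fold for Dusp8, but only 2.11-fold for Dusp10 and 1.86-fold for Dusp16. By group means, ratios to Dusp10 or Dusp16 would thus not lie below NC.

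**Figure D3:**
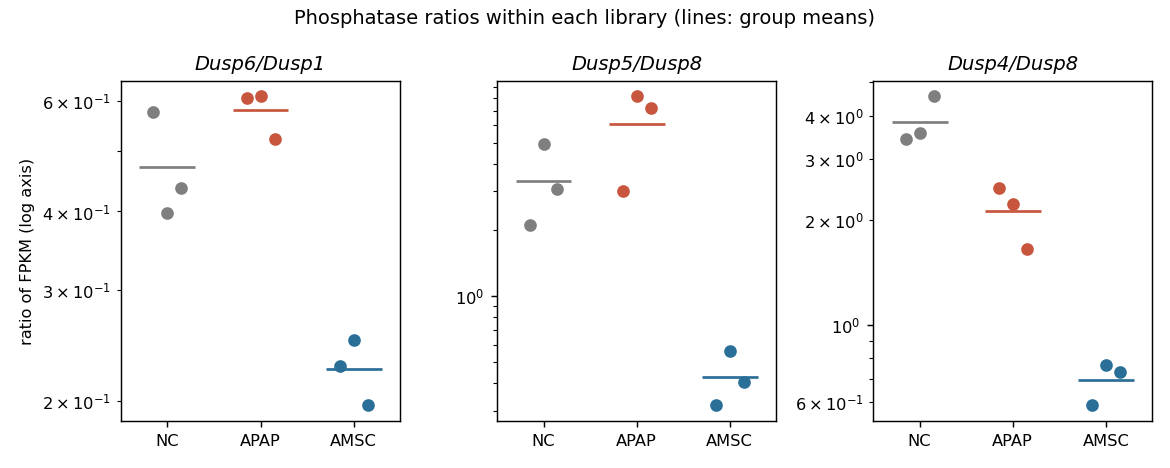
Ratio of FPKM values (log axis) of Dusp6 to Dusp1, Dusp5 to Dusp8 and Dusp4 to Dusp8 within each library (points) with group means (lines). The AMSC livers lie below all NC and APAP livers in each ratio shown, for example 0.196 to 0.250 against 0.398 to 0.610 for Dusp6 to Dusp1. The pairs were set with earlier results of these data known.

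The kinases that these phosphatases act on, and the steps above them, were measured as well. Over all tested genes, the share called in either direction was 7.9% for APAP against NC, 1.96% for AMSC against APAP and 6.01% for AMSC against NC, and the list counts below are read beside these. Of 14 tested genes of the Ras-ERK cascade, 0 were called in any comparison by limma. At an unadjusted p under 0.05 the counts were 1 for APAP against NC, 0 for AMSC against APAP and 1 for AMSC against NC, and voom on recovered reads called 0 of 15 in each. In the JNK and p38 cascade, 3 of 14 tested genes were called higher with APAP and 0 lower. Map3k5 (ASK1, the kinase that starts the JNK cascade under oxidative stress) went from 4.13 ± 0.897 to 10.4 ± 4.35 FPKM (limma, adjusted p = 0.0184), Map3k6 rose by 1.59 on the log2 scale (SE 0.26), and Mapkapk2, a kinase downstream of p38, rose by 1.61 (SE 0.17). The same 3 were called higher in AMSC than in NC livers. The Map3k5 call in APAP against NC was lost without NC replicate 2, NC replicate 3 or APAP replicate 2, and when all genes above 0 were fitted (limma, adjusted p = 0.102). In AMSC against APAP, limma called 0 of the 14, with 1 at an unadjusted p under 0.05, and voom called 1 of 15. That unadjusted count was 8 in APAP against NC and 8 in AMSC against NC, where voom called 4 and 3 of 15. Map2k6 and Mapk8, both named after their values were seen, differed by -0.88 (SE 0.14) and 0.51 (SE 0.12) for APAP minus NC, below the fold. Map2k6 was at 1.95, 0.600 and 1.81 FPKM on average in NC, APAP and AMSC livers, low levels at which the pseudocount of 1 compresses differences.

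Genes known to respond to ERK were mixed. Of 10 tested, 7 rose and 1 fell with APAP (median log2 difference 2.21), 5 were called lower in AMSC than in APAP (median -1.17), and 4 were called higher in AMSC than in NC. Epha2, a receptor of ephrins, was at 5.14 ± 2.03 FPKM in NC, 37.97 ± 7.47 in APAP and 7.43 ± 1.31 in AMSC livers (AMSC minus APAP -2.20, SE 0.18, limma adjusted p = 0.00202). Fosl1, an AP-1 subunit stabilised by ERK, was at 0.0578, 10.2 and 0.552 FPKM in the same order, Phlda1 at 26.0, 65.6 and 14.8 FPKM, and Ier3 and Plaur, both named after their values were seen, were lower in AMSC than in APAP livers (log2 differences of -1.495 and -1.57). The AMSC minus APAP calls of Fosl1 (-2.67, SE 0.52) and Phlda1 (-1.95, SE 0.37) were lost when any of APAP replicates 2 and 3 or the 3 AMSC libraries was left out. Both calls were also lost when all genes above 0 were fitted, that of Fosl1 by voom, and that of Phlda1 in the single fit of all 9 libraries. The APAP minus NC difference of Phlda1 (1.38, SE 0.56) was not called. Over all the lists of genes outside the members, the 8 calls in AMSC against APAP became 5 without APAP replicate 2 or 3 or AMSC replicate 2 or 3, and 4 without AMSC replicate 4. Egr1, the immediate-early gene most often used as an ERK readout, rose from 0.400 ± 0.0606 to 266.6 ± 90.8 FPKM with APAP and stood at 145.1 ± 35.5 FPKM with AMSCs, and that last difference (-0.85, SE 0.27) was not called (limma, adjusted p = 0.135). Myc was likewise called higher than NC in both groups, at 42.9 ± 15.2 and 25.0 ± 3.35 FPKM against 4.57 ± 2.92 FPKM. Ccnd1, cyclin D1, was the gene that fell, from 4.001 ± 1.15 to 1.02 ± 0.515 FPKM with APAP, and it too was named after its values were seen.

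All 8 genes of the AP-1 list, the transcription factor complex on which JNK and ERK signals converge, rose with APAP (median log2 difference 5.03) and were called higher in AMSC than in NC livers (median 5.06). Limma called 0 of 8 in AMSC against APAP (median -0.12), with 2 at an unadjusted p under 0.05, and voom called 1. Fosl1, also an AP-1 subunit, was kept in the ERK-responsive list and is not among these 8, and it was called lower in AMSC than in APAP livers. Atf3 was at 0.497 ± 0.177, 273.2 ± 109.6 and 236.8 ± 16.9 FPKM in NC, APAP and AMSC livers, and Fos at 0.1998 ± 0.0904, 111.1 ± 44.3 and 91.1 ± 29.2 FPKM. Maff rose by 6.29 (SE 0.35) with APAP and was 5.74 (SE 0.12) above NC with AMSCs. In Atf3, Fos and Maff the APAP livers ranged widely.

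**Figure D4:**
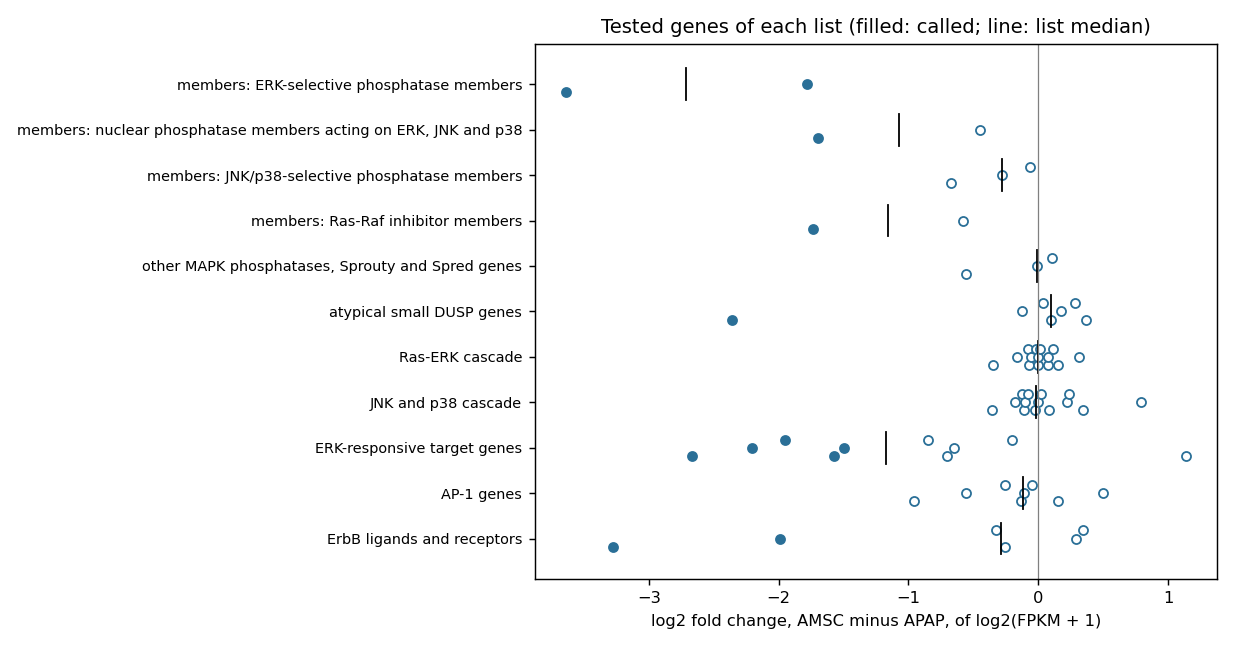
Log2 difference of AMSC minus APAP, on the log2(FPKM + 1) scale, of each tested gene in the classes of members and in the other gene lists (filled points called, open points not called, vertical ticks list medians). Filled points to the left are the ERK-selective members (-3.64 and -1.78), Dusp4, Spry4, 5 ERK-responsive genes, Dusp14, Hbegf and Areg. The 8 AP-1 genes (Fosl1 is among the ERK-responsive genes), the 14 Ras-ERK cascade genes and the 14 JNK and p38 cascade genes hold no filled point.

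Ligands of the epidermal growth factor receptor, which activates Ras and ERK, were also measured. Of 6 tested ErbB genes, 3 rose with APAP and 2 were called lower in AMSC than in APAP. Hbegf was at 0.0505, 0.171 and 0.220 FPKM in NC, 6.41, 23.2 and 18.2 FPKM in APAP and 0.743, 0.292 and 0.673 FPKM in AMSC livers (AMSC minus APAP -3.28, SE 0.40, limma adjusted p = 0.00813). Areg, amphiregulin, was at 0.0159, 7.15 and 1.005 FPKM on average (-1.99, SE 0.22, limma adjusted p = 0.00643). In both, as in Dusp5, the APAP livers were above all others. Both AMSC minus APAP calls were lost when all genes above 0 were fitted (limma, adjusted p = 0.107 for Hbegf and 0.0873 for Areg). Btc rose by 1.19 (SE 0.13) with APAP, and its difference with AMSCs (-0.32, SE 0.13) was not called.

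The relatives of the members outside the list were mostly low in liver. Of 7 other phosphatase, Sprouty and Spred genes, 3 were tested and 2 rose with APAP. Spry1 was at 0.986 ± 0.188, 3.31 ± 0.716 and 3.67 ± 1.05 FPKM in NC, APAP and AMSC livers. Spry1 was thus called higher than NC in the AMSC group as well (1.21, SE 0.18, limma adjusted p = 0.00232). Spred2 rose by 1.13 (SE 0.16) with APAP and stood 0.57 (SE 0.12) above NC with AMSCs, which was not called. The APAP minus NC call of Spry1 was lost without APAP replicate 1, where it was 0.98, and that of Spred2 without APAP replicate 2. Limma called 0 of the 3 in AMSC against APAP, with 1 at an unadjusted p under 0.05, and voom called 0 of 4. Of 7 tested small atypical DUSP genes, limma called Dusp14 alone, higher in APAP than in NC and lower in AMSC than in APAP, at 0.462, 1.10 and 0.657 FPKM in NC, 3.79, 7.09 and 9.11 FPKM in APAP and 0.388, 0.633 and 0.274 FPKM in AMSC livers.

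The tested genes nearest to 3 of the members were found by the root-mean-square difference of log2(FPKM + 1) over the 9 libraries, with each gene centred on its NC mean. Nearest to Dusp5 were Hilpda, a lipid droplet protein induced by hypoxia (0.593), Cd14, the lipopolysaccharide co-receptor (0.636), and Gm22107 (0.837). Gm22107 was at 0.193 ± 0.334 FPKM in NC livers, so the NC mean on which it was centred is poorly known. Hilpda was at 1.17 ± 0.332, 151.4 ± 86.1 and 5.30 ± 2.97 FPKM in NC, APAP and AMSC livers. Nearest to Dusp6 were Ets2, an ETS transcription factor (0.271), 1700017B05Rik (0.307) and Serpina3g (0.404), the last of a multigene family whose reads may be shared. Nearest to Dusp1 were Osgin1, an oxidative stress gene (0.302), Ppp1r15a, which restores translation after stress (0.317), and H3f3b (0.339), a histone gene with processed copies. Ppp1r15a was at 2.74 ± 0.545, 32.1 ± 9.12 and 19.7 ± 4.62 FPKM.

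Markers of other cell types differed between livers, and their part in the differences of the members was not tested. Summed levels of 5 erythroid markers were 134.5 to 254.0 FPKM in NC, 305.9 to 1406 in APAP and 183.2 to 311.9 in AMSC livers, and 4 of the 5 rose with APAP. The 6 neutrophil markers summed to 0.330 to 1.91 FPKM in NC, 7.52 to 34.8 in APAP and 4.24 to 5.98 in AMSC livers, with Ly6g at or near 0 in every library. All 3 tested neutrophil markers were called higher with APAP, and 2 were called higher in AMSC than in NC. The 6 macrophage markers summed to 45.7 to 92.9, 69.7 to 168.9 and 39.8 to 61.7 FPKM, the 6 endothelial markers to 17.0 to 36.3, 21.5 to 54.3 and 18.3 to 19.9 FPKM, the 7 stellate cell or fibroblast markers to 19.5 to 35.01, 24.2 to 55.5 and 24.8 to 41.5 FPKM, and the 5 T and B cell markers to 0.467 to 1.30, 1.34 to 2.43 and 1.11 to 2.04 FPKM. The 5 mesenchymal stem cell markers summed to 12.9 to 14.5 FPKM in AMSC livers against 13.7 to 23.6 in NC and 16.1 to 30.4 in APAP livers, with Thy1 and Prrx1 near 0. Of the 2 tested among these, 1 was called higher with APAP. For the macrophage markers, 1 was called higher with APAP and 1 lower in AMSC than in APAP. The endothelial and the stellate cell or fibroblast markers had 0 calls.

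The hepatocyte markers summed to 40670 to 43847 FPKM in NC, 55196 to 63299 in APAP and 50480 to 53190 in AMSC livers, so that the 3 groups did not overlap. Of these 6 markers, limma called 1 lower with APAP, namely Cyp2e1, the enzyme that turns APAP into its toxic metabolite, which is singled out here after its values were seen. Cyp2e1 was at 3605, 3247 and 3373 FPKM in NC, 1541, 294.4 and 704.6 FPKM in APAP and 3848, 3521 and 3488 FPKM in AMSC livers. Albumin, by comparison, was at 27230 to 29654 FPKM in NC and 42000 to 46612 FPKM in APAP livers. Among the APAP livers, replicate 2 had the lowest sum for each list of the other cell types. It had the highest level of all 7 phosphatase members and of Spred1, but not of Spry2, which was highest in replicate 3, nor of Spry4, which was highest in replicate 1. The part of these differences in those of the members was not tested.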

How the data were processed

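The authors prepared SMARTER mRNA-Seq libraries from total liver RNA and deposited FPKM values per gene, with gene length and coordinates. The paper names DESeq2 for the authors' own differential expression analysis. The aligner and counting program are not given in the sources used here, and the submitters' processing notes name GRCm38 (mm10). FPKM times gene length gave whole reads (within 0.1) for 100% of values after rounding, and the library scaling implied by the FPKM matched size factors by the median of ratios. Coordinates matched GENCODE vM21 for 98.3% of 54409 shared genes and for 8 of the 10 members.

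A pseudocount of 1 was added before the log2, and genes averaging 1 FPKM or more were fitted with limma 3.58.1 (lmFit, eBayes with trend) in R 4.3.3, with the 2 groups compared in each fit and Benjamini-Hochberg adjustment over all genes tested. The unit being FPKM, no count test was used as the main test. The fit was tested on simulated data. Plots were made in matplotlib 3.10.9 and tables in pandas 2.3.3 and numpy 2.4.6, under Python 3.11.15. Samples were grouped by their labels. The paper describes biological replicates, so p-values measure the spread between livers.

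The members and the gene lists were chosen with earlier results of these data known. Named genes were all members, up to 3 called genes of each list with the largest difference in APAP against NC and in AMSC against APAP, and the 3 tested genes nearest to Dusp5, Dusp6 and Dusp1. The results were recomputed with 0.1 as pseudocount, all genes above 0, a mean of at least 5 FPKM, quantile normalization, a single fit of all 9 libraries, the replicate number as a block, voom on recovered reads (mean of at least 10) and leaving out each replicate. Deviations from the group means of same-numbered APAP and NC libraries had correlations of 0.213, 0.160 and 0.378 over genes. The labels state no pairing, and the main fits used no pairs. The replicate number entered only as the block named above. Motifs were searched on both strands of the 250 bases before each RefSeq start.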

Additional observations from a re-analysis of the deposited data

How the results depend on the processing

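Each member kept its direction and call under most alternatives: 329 values kept both, 5 gained the call, 3 lost it and 2 changed sign without being called. With all genes above 0 fitted, 1 member (Dusp6) was called in AMSC against APAP in place of 4, since Dusp4, Dusp5 and Spry4 lost the call at unchanged differences and more genes tested. With a mean of at least 5 FPKM, 5 members were tested and 4 called higher in APAP against NC in place of 7. Spred1 was called in APAP against NC with a pseudocount of 0.1 (1.14) and by voom (1.18), Dusp16 without APAP replicate 3 (1.02), and Dusp10 in AMSC against NC with a pseudocount of 0.1 (1.004) and by voom (1.06). Dusp16 in AMSC against APAP turned to 0.08 without APAP replicate 2 and 0.01 without AMSC replicate 2. For Spry2, voom gave 2.89 (APAP minus NC) and -1.97 (AMSC minus APAP), both called, while with all genes above 0 fitted these were 1.15, called, and -0.95, not called. Over all tested genes, calls in APAP against NC were 766, with 478 at a mean of at least 5 FPKM and 1815 by voom. In AMSC against APAP they were 190, with 21 for all genes above 0, 102 at a mean of at least 5 FPKM, 414 by voom and 90 to 229 when leaving out each replicate. In AMSC against NC they were 583, with 915 at a pseudocount of 0.1 and 1368 by voom. Genes of the other lists gave 25 calls in APAP against NC (13 at a mean of at least 5 FPKM) and 8 in AMSC against APAP (1 for all genes above 0, 3 at a mean of at least 5 FPKM, 4 to 8 when leaving out each replicate). The replicate block raised calls in AMSC against APAP to 335. There the shared numbers 2 and 3 gave correlations of -0.104 and -0.293, and the labels state no pairs. The block changed no member's call in any comparison. Levels of Dusp4, Dusp5, Dusp8 and Spry2 in NC livers rest on 3 to 29 reads, and the log2 differences of these genes from NC are limited by that depth.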

Other observations

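Several genes of the lists lay below the filter and were not tested. Dusp9, Dusp13, Spry3 and Spred3 among them were at most 0.117 FPKM in every library. Those described next were named after their values were seen. Dusp2, a nuclear phosphatase of immune cells, was at 0.0598, 0.173 and 0.290 FPKM in NC, 1.005, 0.967 and 1.63 FPKM in APAP and 0.283, 0.154 and 0.531 FPKM in AMSC livers, with the APAP livers above all others. Ereg, the epidermal growth factor family ligand epiregulin, was at 0.163, 0.235 and 0.397 FPKM in APAP livers and at or below 0.0704 FPKM in all other livers. Egr2, an immediate-early relative of Egr1, was at 1.009, 2.11 and 2.17 FPKM in APAP and 1.19, 0.362 and 1.45 FPKM in AMSC livers, so that these groups overlapped.

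Within the AP-1 list, Fosb and Fosl2 stood on different sides in AMSC against APAP, both named after their values were seen. Fosb was at 1.11, 1.60 and 2.23 FPKM in APAP and 2.44, 2.64 and 3.005 FPKM in AMSC livers, and Fosl2 at 8.40, 8.59 and 7.78 FPKM in APAP and 3.22, 4.91 and 3.31 FPKM in AMSC livers. Neither was called: the differences were 0.50 (SE 0.17, limma adjusted p = 0.155) and -0.96 (SE 0.16, limma adjusted p = 0.0246), the latter below the fold. Mapk14, which encodes p38 alpha, differed by -0.72 (SE 0.16) between APAP and NC livers, also below the fold.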
